A study of Mus musculus with 6 samples.

Results

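Cells take up, store, oxidise and redistribute sterols, and 10 genes of these steps are described here in bone marrow-derived macrophages (BMDMs). The cells came from control mice and from mice with a myeloid deletion in *Acly*, the gene for ATP-citrate lyase. This enzyme makes cytosolic acetyl-CoA, a building block of cholesterol. The genes were chosen by name and role, with earlier results of these data known, and all 10 were found among the 24562 gene symbols of the count table. *Ch25h* and *Cyp27a1* make oxysterols, *Soat1* esterifies cholesterol, *Nceh1* and *Lipa* hydrolyse cholesterol esters, *Npc1* and *Npc2* release cholesterol from lysosomes, and *Osbp*, *Stard3* and *Gramd1a* move sterols between membranes.

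As background, cholesterol esters that macrophages take up with lipoproteins are cleaved in the lysosome by the acid lipase LIPA, and the free cholesterol is handed by NPC2 to the membrane protein NPC1 for export. Cholesterol in excess is re-esterified in the endoplasmic reticulum by SOAT1 and kept in lipid droplets, the material that makes foam cells of atherosclerotic plaques, and NCEH1 is a neutral hydrolase of such esters. Oxysterols made by CH25H and CYP27A1 bind the liver X receptors or restrain the SREBP pathway, and proteins of the OSBP, STARD and GRAMD1 families carry sterol across contact sites between organelles.

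RNA was sequenced from unstimulated BMDMs, which had been differentiated from bone marrow in L929-conditioned medium, of C57Bl/6J mice. The series describes the mice as female, whereas the study's supplement gives both sexes and a range of ages for its in vitro work as a whole. The control group came from Cre-negative *Acly* fl/fl mice and the AclyM-KO group from *Acly* fl/fl mice that also carry LysMcre, a Cre recombinase driven by the *Lyz2* regulatory regions and active in myeloid cells, so both groups carry the floxed allele and only the second carries Cre. Each group had 3 libraries. The labels give no age and do not say that the libraries came from separate mice, and the study describes such replicates as technical replicates of pooled mice, so p-values measure only the spread between these libraries.

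The total count per library was 19327459 to 23582992 in control and 19797218, 44507233 and 19867137 in AclyM-KO replicates 1, 2 and 3. AclyM-KO replicate 2 was thus the deepest library, and several results are given with and without it. *Acly* itself was at 229.7 ± 8.18 CPM (counts scaled to library size, mean ± SD, n = 3) in control and at 96.8 ± 3.06 CPM in AclyM-KO libraries. The floxed allele has loxP sites around only part of *Acly*, and the source of the remaining *Acly* reads was not tested. All 7 macrophage markers examined were detected in every library, with counts between 1345 and 174593, and neutrophil markers summed to 18.8 to 22.7 CPM in control and 19.7 to 22.9 CPM in AclyM-KO libraries. Dendritic cell markers summed to at most 1.36 CPM, and no lymphocyte, erythroid or stromal marker exceeded 4 counts in any library, with 2 of 6, 2 of 4 and 3 of 5 of them at 0 throughout. Of the macrophage markers, 3 were lower in AclyM-KO libraries (*Lyz2*, whose locus carries the Cre, *Mertk* and *Csf1r*) and 0 were higher in edgeR, where 5.65% of all genes were lower. The summed macrophage markers ranged from 21471 to 22462 CPM in control and from 12438 to 15064 CPM in AclyM-KO libraries, or 8422 to 8626 and 6832 to 8085 CPM without *Lyz2*, and their part in the results below was not tested.

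Of the 10 genes, 9 had enough reads to be tested, and 1 of them, *Cyp27a1*, was lower in AclyM-KO macrophages at an adjusted p of 0.05 or less (edgeR quasi-likelihood test, Benjamini-Hochberg adjustment over 11470 genes). Among all genes tested, 12.3% passed this threshold, 6.7% with a higher and 5.65% with a lower level in AclyM-KO libraries. None of the 9 genes was higher, and at an unadjusted p below 0.05 edgeR had 0 higher and 4 lower, as it had 13.9% and 13.3% of all genes. DESeq2 called another gene lower, *Npc2*, and not *Cyp27a1*, and called 0 higher, where it called 11.2% of all genes (5.23% lower and 6.02% higher). With limma-voom, 4 were lower and 1 higher, against 9.39% and 9.68% of all genes. The log2 fold changes of the 9 genes lay between -0.75 and 0.19, and their median was -0.06, against 0.000259 over all genes. For 8 of the 9 genes (88.9%) the absolute log2 fold change was below 0.2, as it was for 60.8% of all genes. The ranges of the groups did not overlap for 5 of the 9 genes, and 32.8% of all genes tested had such separate groups. AclyM-KO was below control for 4 of these 5 and above it for 1. Among all 11470 genes tested it was below for 1900 and above for 1866.

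**Figure D1:**
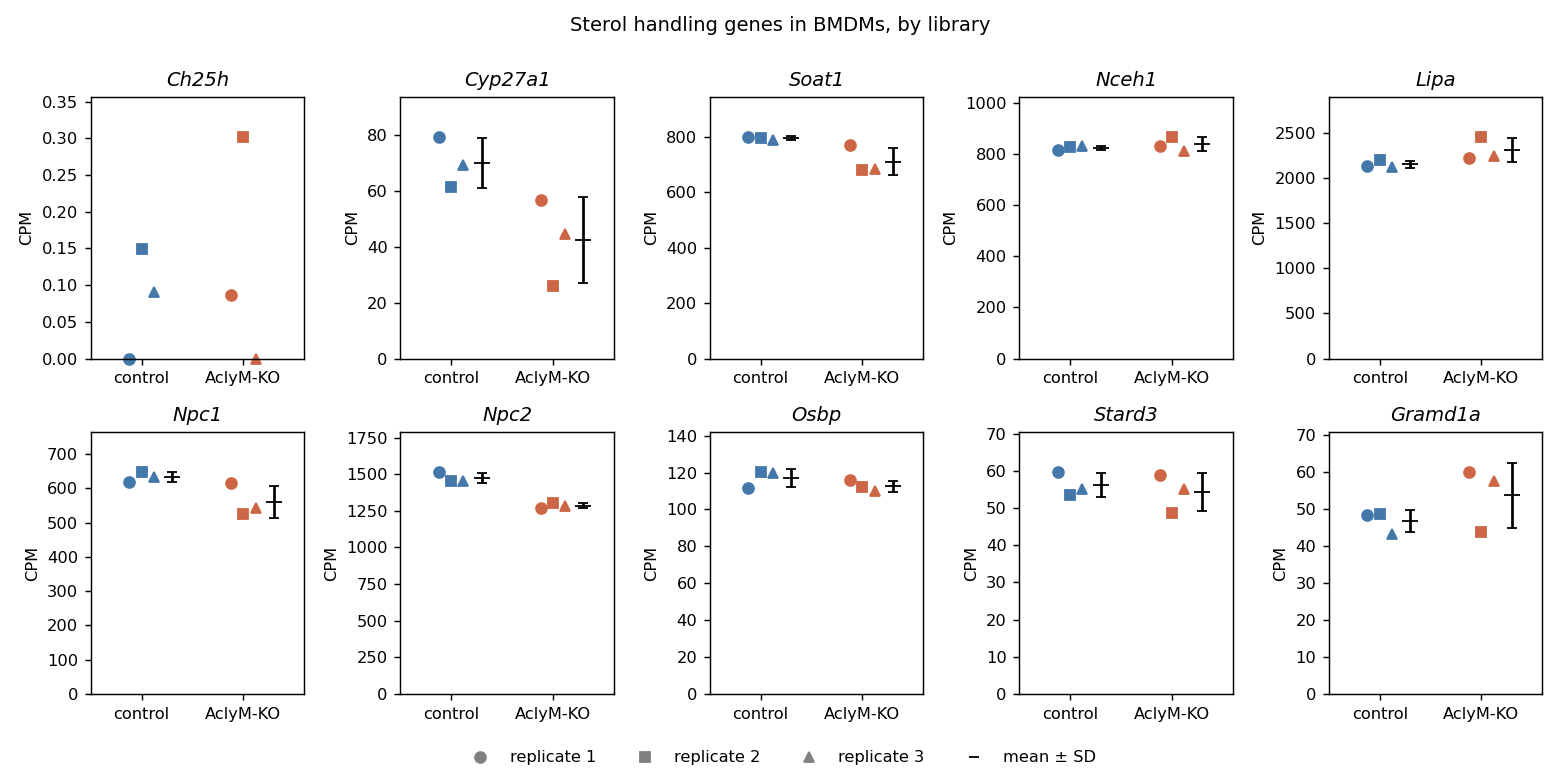
CPM of each of the 10 genes (vertical axis, from 0, a different scale for each gene) in the 3 control and 3 AclyM-KO libraries. Points are libraries with a marker shape for each replicate number, and bars show mean ± SD except for *Ch25h*, which was not tested. The *Cyp27a1* points of AclyM-KO libraries all lie under 57 CPM and those of control libraries above 61 CPM, whereas the groups overlap for *Nceh1*, *Osbp*, *Stard3* and *Gramd1a*.

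Across the listed genes, levels spanned a far wider range than the differences between genotypes, although some genes lay at similar levels. Per kilobase of transcript, *Lipa* had the highest level, 726.4 ± 13.7 CPM per kb (SD, n = 3) in control and 779.1 ± 44.2 CPM per kb in AclyM-KO libraries. *Npc2* followed with 446.9 ± 10.9 and 389.9 ± 4.91 CPM per kb. *Nceh1* stood at 183.9 ± 1.73 and 187.0 ± 6.22 CPM per kb, *Npc1* at 121.2 ± 2.87 and 107.4 ± 9.12 CPM per kb, and *Soat1* at 95.1 ± 0.681 and 84.9 ± 6.01 CPM per kb. These 5 genes of lysosomal cholesterol release and of the ester cycle all had more CPM in control libraries than at least 98.6% of the genes tested.

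The oxysterol genes and the transfer proteins had lower levels than these. *Cyp27a1* stood at 37.0 ± 4.75 CPM per kb in control and 22.5 ± 8.19 CPM per kb in AclyM-KO libraries, which moved it from rank 6 to rank 8 among the 10 genes. *Stard3* (27.1 ± 1.54 and 26.2 ± 2.51 CPM per kb) and *Osbp* (26.1 ± 1.09 and 25.1 ± 0.673 CPM per kb) were at nearly the same level, and *Gramd1a* was at 17.3 ± 1.11 and 19.8 ± 3.22 CPM per kb. Taking neighbours in this order over the 6 libraries, the ranges overlapped only between *Cyp27a1* and *Stard3* and between *Stard3* and *Osbp*. *Ch25h* lay beneath all of them at 0.0576 CPM per kb in control and 0.0936 CPM per kb in AclyM-KO libraries.

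**Figure D2:**
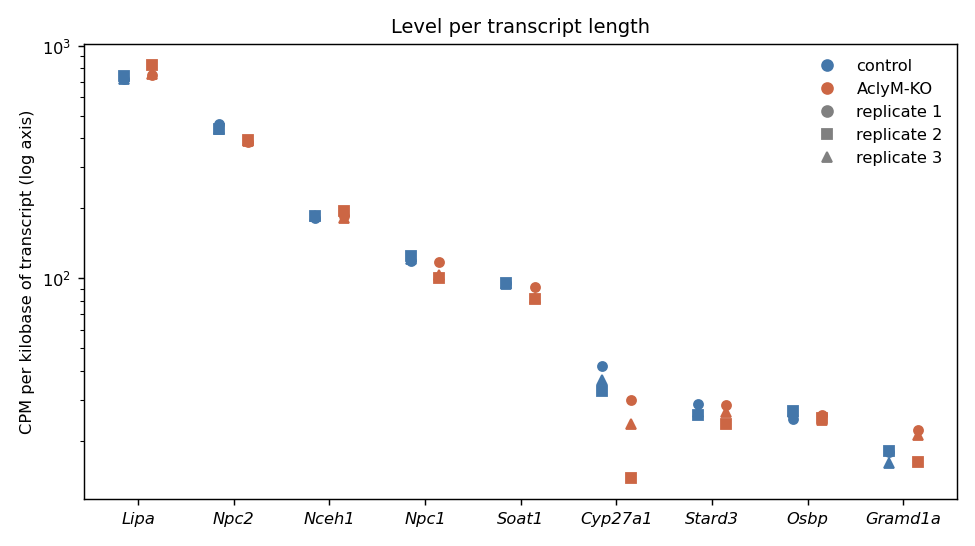
CPM per kilobase of transcript (vertical axis, logarithmic) for the 9 tested genes in each of the 6 libraries, ordered by the mean of the control libraries. *Lipa* and *Npc2* are the highest and *Gramd1a* the lowest in control, and *Cyp27a1* has the widest spread, reaching from 42.0 CPM per kb in a control library to 13.8 CPM per kb in AclyM-KO replicate 2.

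Oxysterol formation was described by *Ch25h*, an interferon-inducible enzyme of the endoplasmic reticulum that makes 25-hydroxycholesterol, and by *Cyp27a1*, a mitochondrial enzyme that makes 27-hydroxycholesterol and also acts in bile acid synthesis. *Ch25h* is a gene with 1 exon on the minus strand of chromosome 19 (mm10, chr19:34473778-34475164) and had almost no reads in these unstimulated cells. Control replicates 1, 2 and 3 had 0, 2 and 1 counts, and AclyM-KO replicates had 1, 8 and 0. These are 12 reads in all, of which 8 were in the deepest library. A level of 3 counts, which a count of 0 still allows, corresponded to 0.224 to 0.273 CPM in control and 0.113 to 0.262 CPM in AclyM-KO libraries, so a difference in *Ch25h* was not detectable at this depth. The locus also holds *Gm26902* on the opposite strand. The authors counted with the default settings of HOMER2, and the sources used here do not name the strand option, so reads of overlapping genes may not be told apart.

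*Cyp27a1* (chr1:74713574-74737892, plus strand, 9 exons) was the one listed gene that was called. Control replicates 1, 2 and 3 had 79.5, 61.6 and 69.2 CPM, and AclyM-KO replicates 1, 2 and 3 had 56.8, 26.1 and 44.6 CPM. All control libraries were above all AclyM-KO libraries, and AclyM-KO replicate 2 was the lowest by a wide margin. The group means were 70.1 ± 8.98 and 42.5 ± 15.5 CPM (SD, n = 3 each), so *Cyp27a1* fell by 0.75 on the log2 scale (standard error [SE] 0.213, 95% confidence interval -1.21 to -0.28, edgeR adjusted p = 0.0411), which means that its CPM decreased by 40.4%. In a bulk sample, fewer cells expressing a gene and less RNA per cell cannot be told apart.

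The size of the *Cyp27a1* difference depended on AclyM-KO replicate 2. Without that library the log2 fold change was -0.46 (edgeR adjusted p = 0.00340), and without AclyM-KO replicate 1 it was -1.02 (edgeR adjusted p = 0.00700). The call was lost without control replicate 1 (edgeR adjusted p = 0.155), control replicate 2 (0.0729), control replicate 3 (0.118) or AclyM-KO replicate 3 (0.0812). It was also lost with DESeq2 (adjusted p = 0.170) and with counts summed over all transcripts of a gene (edgeR adjusted p = 0.0595). The direction was the same in all 15 of these and the other alternatives that were run, and 9 of the 15 passed the threshold of 0.05.

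The promoter of *Cyp27a1* is shown because this gene carried the called difference. It runs from 250 bases before to 50 bases after the RefSeq start (GRCm38.p6, chr1:74713285-74713584, plus strand), is written 5′ to 3′, and holds none of the 5 sterol-related or lysosome-related motifs described further on, so no letters are in capitals.
Cyp27a1 promoter: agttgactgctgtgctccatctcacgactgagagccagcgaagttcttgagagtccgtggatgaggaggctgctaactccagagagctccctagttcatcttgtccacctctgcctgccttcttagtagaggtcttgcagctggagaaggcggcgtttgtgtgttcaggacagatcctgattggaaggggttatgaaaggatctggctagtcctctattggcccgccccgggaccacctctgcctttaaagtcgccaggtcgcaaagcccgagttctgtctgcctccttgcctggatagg

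The 5 genes whose CPM followed *Cyp27a1* most closely over the 6 libraries were *Usp35*, *Gprc5c*, *Engase*, *Fcgrt* and *Bmf*. Likeness was the root mean square difference in log2 CPM, each gene centred on its own mean, and came to 0.0703 for *Usp35*, a deubiquitinase, 0.0960 for *Gprc5c*, an orphan receptor, and 0.0960 for *Engase*, an endoglycosidase. It was 0.0989 for *Fcgrt*, the neonatal Fc receptor, and 0.108 for *Bmf*, a pro-apoptotic BH3-only protein. Genes picked in this way share the direction of *Cyp27a1* by choice, and their log2 fold changes are given as a description. *Usp35* (-0.80, edgeR adjusted p = 0.0231), *Fcgrt* (-0.80, 0.00735) and *Bmf* (-0.89, 0.0155) passed the threshold, and *Engase* (-0.65, 0.0535) and *Gprc5c* (-0.57, 0.141) did not. The call of *Usp35* was lost without control replicate 1, 2 or 3 (edgeR adjusted p = 0.102, 0.0509 and 0.0823) and that of *Bmf* without control replicate 1 or 3 (edgeR adjusted p = 0.0612 and 0.0711). Without AclyM-KO replicate 2 the log2 fold changes of these genes were nearer to 0, at -0.52 for *Usp35*, -0.59 for *Fcgrt*, -0.61 for *Bmf*, -0.38 for *Engase* and -0.25 for *Gprc5c*.

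Of the genes of the ester cycle, *Soat1*, which esterifies cholesterol, was somewhat lower in AclyM-KO libraries without passing the threshold, and the hydrolases *Nceh1* and *Lipa* were at or slightly above control. *Soat1* (chr1:156424525-156474331, minus strand, 16 exons) was at 801.1, 797.6 and 789.9 CPM in control and 769.0, 678.7 and 685.6 CPM in AclyM-KO replicates 1, 2 and 3. The control libraries lay close together and all AclyM-KO libraries were below them, with AclyM-KO replicate 1 nearest to control. *Soat1* had a log2 fold change of -0.16 (SE 0.0673, 95% confidence interval -0.31 to -0.02, edgeR adjusted p = 0.141). Without AclyM-KO replicate 1 it was -0.23 (edgeR adjusted p = 0.0424).

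*Nceh1* (chr3:27182965-27244958, plus strand, 5 exons) was at 815.1, 826.6 and 829.9 CPM in control and 832.3, 867.9 and 812.9 CPM in AclyM-KO replicates 1, 2 and 3. The groups overlapped, and AclyM-KO libraries included both the highest and the lowest value of the 6. *Nceh1* had a log2 fold change of 0.02 with a 95% confidence interval of -0.11 to 0.16 (edgeR adjusted p = 0.841), and it was -0.00018 without AclyM-KO replicate 2. The promoter of *Nceh1* (GRCm38.p6, chr3:27182754-27183053, plus strand, 5′ to 3′) is shown because it was the only 1 of the 9 promoters with an E-box. Capitals mark the CACGTG, 26 bases upstream of the RefSeq start. The gene coordinates given above are those of GENCODE and begin before that start, so the CACGTG lies within them.
Nceh1 promoter: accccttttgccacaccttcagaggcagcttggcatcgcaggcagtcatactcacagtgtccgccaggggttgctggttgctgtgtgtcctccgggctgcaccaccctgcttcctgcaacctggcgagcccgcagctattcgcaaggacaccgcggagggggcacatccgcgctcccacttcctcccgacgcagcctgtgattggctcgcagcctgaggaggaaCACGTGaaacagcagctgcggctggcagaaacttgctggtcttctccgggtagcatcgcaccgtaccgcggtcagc

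*Lipa* (chr19:34492318-34527474, minus strand, 10 exons), the lysosomal acid lipase, was at 2139.6, 2203 and 2128 CPM in control and 2227, 2464 and 2248 CPM in AclyM-KO replicates 1, 2 and 3. AclyM-KO libraries were all above control, although by little in replicate 1. At a log2 fold change of 0.10 (SE 0.0656, 95% confidence interval -0.04 to 0.24) *Lipa* did not pass the threshold (edgeR adjusted p = 0.360). The table holds 2 transcripts of *Lipa* with nearly the same counts, and the one with more reads was used.

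The RNA of the esterifying *Soat1* was also set against that of the neutral hydrolase *Nceh1* within each library. The ratio of their counts does not depend on the scaling of libraries. Counts were not divided by transcript length (8371 bases for *Soat1* and 4480 for *Nceh1*), so the ratio does not compare their levels per kilobase. Enzyme activity was not measured here. The ratio was 0.983, 0.965 and 0.952 in control and 0.924, 0.782 and 0.843 in AclyM-KO replicates 1, 2 and 3, so the groups did not overlap. The log2 ratio was -0.05 ± 0.0232 in control and -0.24 ± 0.120 in AclyM-KO libraries (SD, n = 3 each), a difference of -0.19. A two-sided exact permutation test gave p = 0.10, the smallest value that 3 libraries against 3 allow, so this test cannot go below 0.05 with these libraries.

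Of the pair that exports cholesterol from lysosomes, *Npc2*, the soluble carrier in the lumen, was lower in AclyM-KO libraries and lay just outside the threshold. *Npc2* (chr12:84754562-84773152, minus strand, 4 exons) was at 1516, 1453 and 1454 CPM in control and 1271, 1304 and 1284 CPM in AclyM-KO replicates 1, 2 and 3. The libraries of each group lay close together and the gap between the groups was wider than either group's range. This gave a log2 fold change of -0.20 (SE 0.0599, 95% confidence interval -0.33 to -0.07, edgeR adjusted p = 0.0527). *Npc2* passed the threshold in 5 of 15 alternatives, among them DESeq2 (adjusted p = 0.0356) and the fit without AclyM-KO replicate 2 (edgeR adjusted p = 0.00326), and its log2 fold change stayed between -0.21 and -0.18 when each library was left out in turn.

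The promoter of *Npc2* (GRCm38.p6, chr12:84773063-84773362, minus strand, 5′ to 3′) is shown because this gene lay nearest to the threshold among the listed genes that missed it. None of the motifs searched was in it, so no letters are in capitals.
Npc2 promoter: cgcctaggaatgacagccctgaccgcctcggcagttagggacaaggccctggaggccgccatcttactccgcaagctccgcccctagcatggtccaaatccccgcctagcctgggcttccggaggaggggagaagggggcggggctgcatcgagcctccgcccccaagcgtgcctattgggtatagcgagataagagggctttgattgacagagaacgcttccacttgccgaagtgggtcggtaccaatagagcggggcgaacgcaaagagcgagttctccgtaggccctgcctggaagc

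*Npc1* (chr18:12189693-12236400, minus strand, 25 exons), the membrane transporter to which NPC2 hands cholesterol, was at 618.1, 648.1 and 632.4 CPM in control and 615.0, 525.7 and 541.7 CPM in AclyM-KO replicates 1, 2 and 3. AclyM-KO replicate 1 was just below the lowest control library and the other two were well below it. With a log2 fold change of -0.17 (SE 0.0719, 95% confidence interval -0.33 to -0.02) *Npc1* did not pass the threshold (edgeR adjusted p = 0.139). Without AclyM-KO replicate 1 it was -0.25 (edgeR adjusted p = 0.0334). Exons of *Gm15956* and *Rmc1* overlap those of *Npc1* on the opposite strand, so their reads may not be told apart.

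*Lipa*, *Npc1* and *Npc2* were set beside 25 other lysosomal genes, mostly hydrolases and their activators, with subunits of the proton pump and the ion channel gene *Mcoln1*, all of which were tested. Of these, 2 were lower and 0 higher (8.0%, against 12.3% of all genes), with 2 higher and 7 lower at an unadjusted p below 0.05 in edgeR (13.9% and 13.3% of all genes). DESeq2 called 0 higher and 3 lower (6.02% and 5.23% of all genes), and limma-voom 4 higher and 5 lower (9.68% and 9.39% of all genes). Their median log2 fold change was -0.08. The called genes were *Gm2a*, the activator protein of ganglioside breakdown, with a log2 fold change of -0.33 (edgeR adjusted p = 0.0176), and *Ctss*, the protease cathepsin S, with -0.27 (edgeR adjusted p = 0.0195). Without AclyM-KO replicate 2 the count was 5 higher and 4 lower, against 9.56% and 8.92% of all genes, and without any single control library it was 0 (against 5.15% to 5.69% of all genes), with 2 to 4 lower and 0 to 1 higher at an unadjusted p below 0.05 (9.63% to 9.98% and 10.6% to 11.1% of all genes).

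The 3 sterol transfer genes did not pass the threshold, and the groups overlapped for each of them. *Osbp* (chr19:11965941-11994112, plus strand, 14 exons), which exchanges cholesterol for phosphatidylinositol 4-phosphate between the endoplasmic reticulum and the Golgi, was at 111.6, 120.3 and 119.7 CPM in control and 115.8, 112.4 and 109.8 CPM in AclyM-KO replicates 1, 2 and 3. Its log2 fold change was -0.06 with a 95% confidence interval of -0.20 to 0.09 (edgeR adjusted p = 0.633). The spread among the control libraries covered 2 of the 3 AclyM-KO libraries.

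*Stard3* (chr11:98358368-98381099, plus strand, 15 exons), a late endosomal protein that tethers to the endoplasmic reticulum, was at 59.7, 53.6 and 55.2 CPM in control and 59.0, 48.7 and 55.2 CPM in AclyM-KO replicates 1, 2 and 3. Only AclyM-KO replicate 2 lay outside the control range. The log2 fold change was -0.05 (95% confidence interval -0.25 to 0.14, edgeR adjusted p = 0.755) and 0.0279 without AclyM-KO replicate 2. The promoter of *Stard3* (GRCm38.p6, chr11:98358118-98358417, plus strand, 5′ to 3′) is shown because it was the only 1 of the 9 with the core of the sterol regulatory element. Capitals mark TCACTCCAC, 211 bases upstream of the start.
Stard3 promoter: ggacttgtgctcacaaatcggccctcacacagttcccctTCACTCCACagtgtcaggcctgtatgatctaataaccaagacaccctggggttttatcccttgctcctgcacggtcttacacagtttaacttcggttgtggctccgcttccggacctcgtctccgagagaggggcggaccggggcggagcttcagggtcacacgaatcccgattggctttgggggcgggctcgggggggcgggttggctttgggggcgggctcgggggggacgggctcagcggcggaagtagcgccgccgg

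*Gramd1a* (chr7:31130127-31151082, minus strand, 19 exons), which carries cholesterol from the plasma membrane to the endoplasmic reticulum, was at 48.5, 48.7 and 43.4 CPM in control and 60.1, 43.8 and 57.5 CPM in AclyM-KO replicates 1, 2 and 3. AclyM-KO replicates 1 and 3 were above all control libraries, whereas replicate 2 was within the control range. The log2 fold change was 0.19 (SE 0.116, 95% confidence interval -0.07 to 0.44, edgeR adjusted p = 0.332), and without AclyM-KO replicate 2 it was 0.33 (edgeR adjusted p = 0.00396). *G630030J09Rik* overlaps the exons of *Gramd1a* on the opposite strand.

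**Figure D3:**
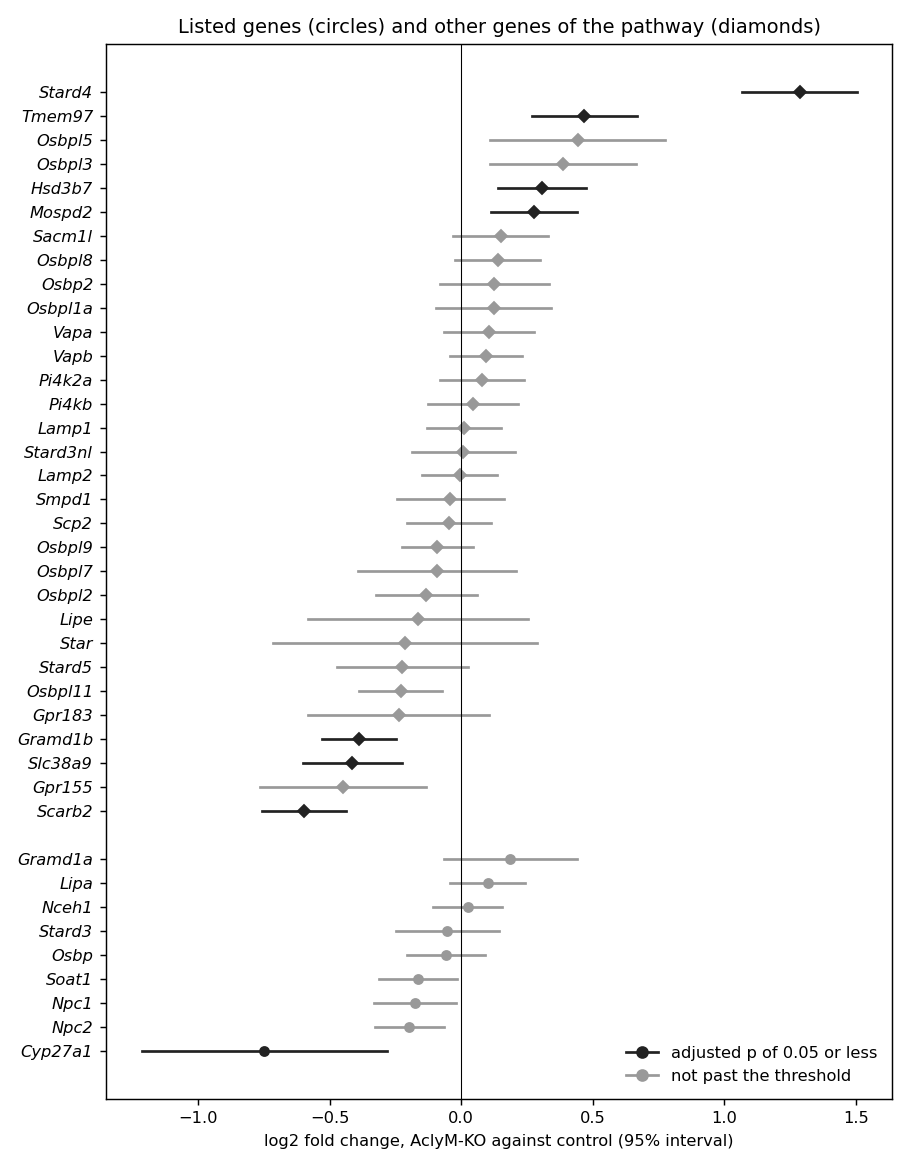
Log2 fold change of AclyM-KO over control for the tested genes among the 10 listed and for the other genes of sterol handling that were tested, with 95% confidence intervals from edgeR. Dark points passed an adjusted p of 0.05, and grey points did not. Among the listed genes only *Cyp27a1* at -0.75 is dark, and among the others *Stard4* at 1.29 lies farthest from 0.

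Which of the 9 tested genes were called changed with the libraries used. Without AclyM-KO replicate 1, *Cyp27a1*, *Soat1* and *Npc1* were lower and no gene was higher, and 14.2% of all genes tested were called (7.54% higher and 6.65% lower). Without AclyM-KO replicate 2, *Cyp27a1* and *Npc2* were lower and *Gramd1a* was higher, and 18.5% of all genes tested were called in that fit (9.56% higher and 8.92% lower). Without any 1 of the control libraries or without AclyM-KO replicate 3, edgeR called 0 of the 9, with 2 lower and 0 higher at an unadjusted p below 0.05 in each of these 4 fits, where 9.63% to 12% of all genes were lower and 10.6% to 13.4% higher at that p. The share of all genes called was 5.15%, 5.69% and 5.41% without control replicates 1, 2 and 3 and 9.08% without AclyM-KO replicate 3.

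**Figure D4:**
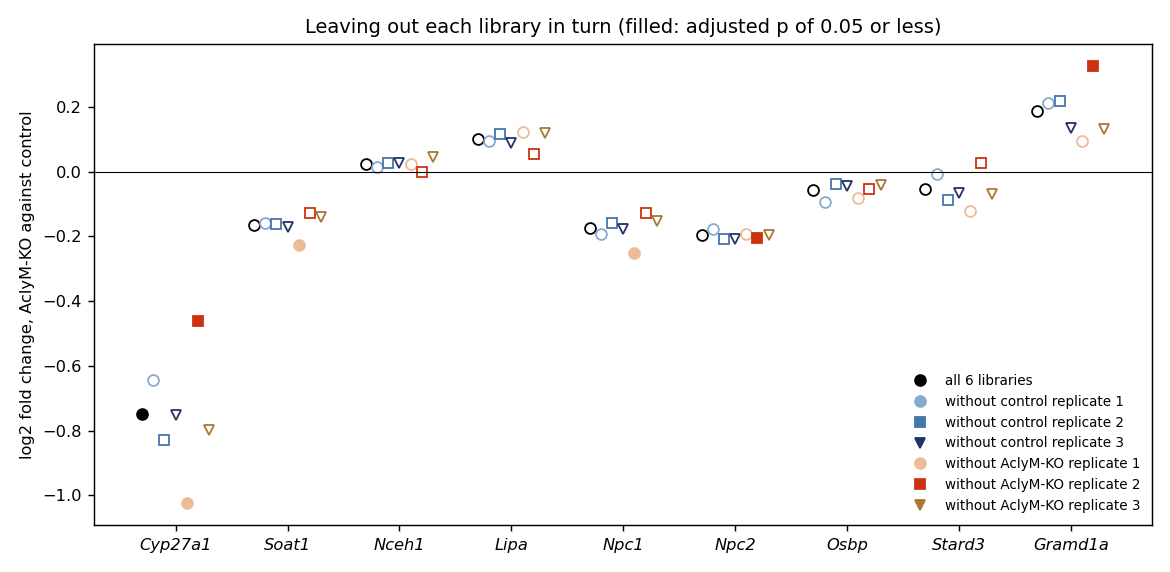
Log2 fold change of the 9 tested genes (horizontal axis) with all 6 libraries and after removal of each library by turns. *Cyp27a1* moves between -1.02 and -0.46 and *Npc2* between -0.21 and -0.18, and only *Nceh1* and *Stard3* cross 0.

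The promoters of 9 of the 10 genes were searched on both strands for 5 motifs, beside all 32851 promoters of the same length in the RefSeq table, and *Npc1* was not searched. The core TCACNCCAC of the sterol regulatory element SRE-1 was in 1.24% of all promoters and in 1 of the 9, *Stard3*. The full SRE-1, which is this core with C in place of N and an A before it, was in 0.0913% of all promoters and in 0 of the 9. The E-box CACGTG was in 7.15% of all promoters and in 1 of the 9, *Nceh1*. The lysosomal CLEAR motif, which is that E-box with GT before and AC after it, was in 0.326% of all promoters and in 0 of the 9. The liver X receptor motif DR4, a repeat of AGGTCA with NNNN in between, was in 0.0152% of all promoters and in 0 of the 9. A match in this window is a description of the letters and not a measured binding site.

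Among 44 other genes of oxysterol metabolism, the ester cycle, lysosomal sterol sensing and sterol transfer, 31 were tested, and 4 were higher and 3 lower in AclyM-KO libraries, 22.6% against 12.3% of all genes. The median log2 fold change of the 31 was 0.01, with values from -0.60 to 1.29. The groups did not overlap for 13 of them, and 32.8% of all genes had such groups. The other 13 genes were not tested for lack of reads. *Cyp46a1*, *Cyp7b1*, *Cyp11a1* and *Cyp7a1*, further enzymes of oxysterol, steroid and bile acid metabolism, had 0 counts in all 6 libraries, and the highest count of an untested gene was 38, for *Soat2*, the second gene for an esterifying enzyme. Control libraries had 4, 5 and 3 counts of *Soat2*, and AclyM-KO replicates 1, 2 and 3 had 6, 38 and 20, so the groups did not overlap and the numbers were small. It entered 6 of the alternatives, with log2 fold changes of 1.76 to 2.16, and was past the threshold with no filter on low counts (edgeR adjusted p = 0.0153) and without AclyM-KO replicate 1 (edgeR adjusted p = 0.00677), but not with DESeq2 (adjusted p = 0.0599) or without control replicate 1, 2 or 3 (edgeR adjusted p from 0.103 to 0.120). In the fits that left out a library, *Soat2* met the filter on reads only through AclyM-KO replicates 2 and 3, where it was high. No conclusion is drawn from the p-values of those fits.

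Of the 31 tested genes, the largest change was in *Stard4*, a soluble carrier of cholesterol (chr18:33199355-33213862, minus strand). It was at 78.0, 88.5 and 87.0 CPM in control and 195.7, 238.3 and 183.0 CPM in AclyM-KO replicates 1, 2 and 3. All AclyM-KO libraries were at least at 183.0 CPM and no control library exceeded 88.5 CPM. *Stard4* rose, with a log2 fold change of 1.29 (SE 0.0995, edgeR adjusted p = 1.34e-05), a 2.44-fold higher level, and passed the threshold in all 15 alternatives.

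*Gramd1b*, a relative of *Gramd1a* at the endoplasmic reticulum, was lower. It was at 141.5, 134.3 and 132.5 CPM in control and 103.7, 105.3 and 102.9 CPM in AclyM-KO replicates 1, 2 and 3, with a log2 fold change of -0.39 (edgeR adjusted p = 0.00317). It passed the threshold in all 15 alternatives, and *1700110K17Rik* overlaps it on the opposite strand. Of 15 tested genes of sterol transfer, *Stard4* and *Gramd1b* were the ones called, 13.3% against 12.3% of all genes.

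Of 7 tested genes of the lysosomal membrane and of sterol sensing, 2 were lower and 1 was higher (42.9% called, against 12.3% of all genes). *Scarb2*, which encodes the lysosomal membrane protein LIMP-2, was at 387.7, 349.8 and 355.6 CPM in control and 259.8, 227.5 and 236.1 CPM in AclyM-KO replicates 1, 2 and 3. The log2 fold change was -0.60 (edgeR adjusted p = 4.83e-04), and *Scarb2* was past the threshold in all 15 alternatives. *Slc38a9*, a lysosomal amino acid transporter that takes part in cholesterol sensing by mTORC1, was at 54.2, 51.9 and 46.7 CPM in control and 39.0, 36.6 and 39.4 CPM in AclyM-KO libraries, with a log2 fold change of -0.41 (edgeR adjusted p = 0.00954). Its call was lost without control replicate 1 (edgeR adjusted p = 0.0682) or control replicate 2 (0.0551). *Tmem97*, the sigma-2 receptor, which binds NPC1, was at 20.6, 22.4 and 22.5 CPM in control and 29.4, 30.8 and 30.4 CPM in AclyM-KO libraries, with a log2 fold change of 0.47 (edgeR adjusted p = 0.00710), and its call was lost without control replicate 1 (edgeR adjusted p = 0.0511).

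The remaining called genes rose by less. *Hsd3b7*, an enzyme of bile acid synthesis that also breaks down oxysterols, was at 48.7, 50.7 and 51.2 CPM in control and 64.7, 58.3 and 63.7 CPM in AclyM-KO replicates 1, 2 and 3, with a log2 fold change of 0.31 (edgeR adjusted p = 0.0237). *Gm49388* overlaps it on the same strand and *9430064I24Rik* on the opposite strand. *Mospd2*, a contact site protein of the endoplasmic reticulum, was at 88.8, 93.9 and 87.2 CPM in control and 103.2, 117.8 and 105.7 CPM in AclyM-KO libraries, with a log2 fold change of 0.28 (edgeR adjusted p = 0.0342). The calls of both were lost in several of the fits that left out 1 library, those without control replicate 1, 2 or 3 among them.

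**Figure D5:**
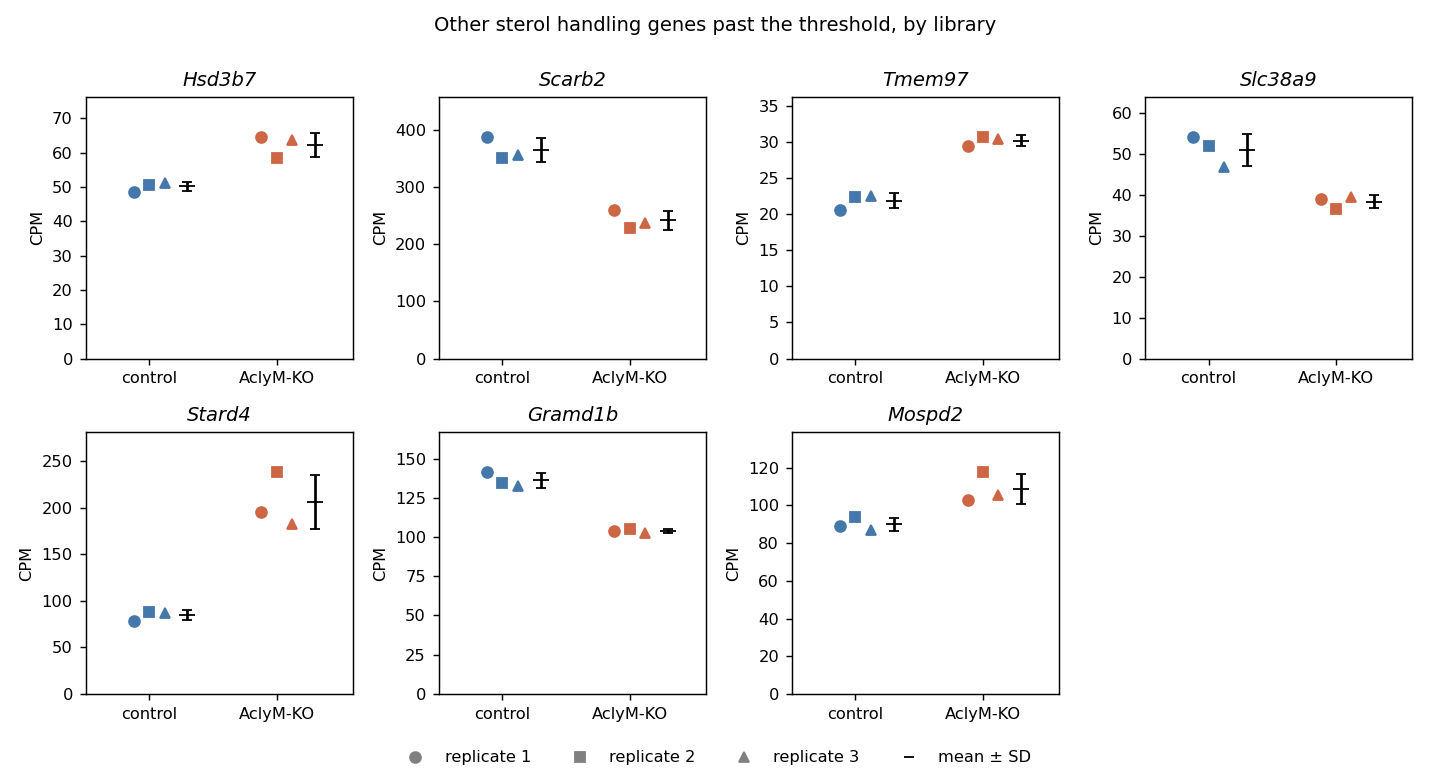
CPM (vertical axis, from 0, a different scale for each gene) of the 7 other sterol handling genes that passed the threshold, in the 3 control and 3 AclyM-KO libraries, with mean ± SD as bars. The groups do not overlap for any of the 7, and *Stard4* rises from 78.0 to 88.5 CPM in control to 183.0 to 238.3 CPM in AclyM-KO libraries.

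Since *Ch25h* is induced by interferon, 20 interferon-stimulated genes were read beside it, all of which were tested. Of these, 5 were higher in AclyM-KO libraries (25.0%, against 6.7% of all genes) and 0 lower, with 10 higher and 0 lower at an unadjusted p below 0.05 in edgeR, where 13.9% of all genes were higher. DESeq2 called 7 higher (6.02% of all genes) and limma-voom 6 higher (9.68% of all genes), and neither called a gene lower. The median log2 fold change was 0.45. *Usp18*, which restrains interferon receptor signalling, was at 7.37, 7.32 and 7.85 CPM in control and 8.79, 22.0 and 12.2 CPM in AclyM-KO replicates 1, 2 and 3, with a log2 fold change of 0.99 (edgeR adjusted p = 0.0374). *Oasl2*, an oligoadenylate synthetase-like gene, was at 63.4, 51.7 and 63.2 CPM in control and 66.0, 142.3 and 85.3 CPM in AclyM-KO libraries, with a log2 fold change of 0.74 (edgeR adjusted p = 0.0459). In both genes AclyM-KO replicate 2, the deepest library, was the highest and AclyM-KO replicate 1 was close to control. Without AclyM-KO replicate 2 the log2 fold change was 0.49 for *Usp18* (edgeR adjusted p = 0.0468) and 0.35 for *Oasl2* (edgeR adjusted p = 0.0162), and DESeq2 did not call *Oasl2* (adjusted p = 0.192). Without control replicate 1, 2 or 3 or AclyM-KO replicate 3 the count of the 20 fell to 1, *Stat2*, in fits that called 5.15%, 5.69%, 5.41% and 9.08% of all genes. At an unadjusted p below 0.05, 12, 7, 7 and 10 were higher in these fits, against 10.6%, 11.1%, 11.1% and 13.4% of all genes. Without AclyM-KO replicate 1 the count was 10 higher, against 7.54% of all genes. Without AclyM-KO replicate 2 it was 5 higher, against 9.56% of all genes, and 6 were higher and 1 lower at an unadjusted p below 0.05, against 15.7% and 15.4% of all genes.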

How the data were processed

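Expression was measured by RNA-seq in 3 control and 3 AclyM-KO libraries of unstimulated BMDMs. The authors made stranded mRNA libraries, used STAR 2.5.2b for alignment to mm10 and SAMtools for a mapping quality filter, and deposited raw counts per RefSeq transcript made with HOMER2 at default settings. The RefSeq release and the strand option of that counting are not named in the sources used here. Of 12 value columns, 6 belong to these libraries and 6 were not used here.

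The transcript with the highest total count stood for each of 24562 symbols (35745 transcripts, of which 117 had no symbol and kept their accession), since reads on shared exons can be counted in several transcripts. The genotypes were tested with edgeR 4.0.16 under R 4.3.3 (TMM, filterByExpr, quasi-likelihood test, genotype only), adjusting p by Benjamini-Hochberg over 11470 genes, after a test on simulated data. The biological coefficient of variation was 8.90%. CPM use TMM-normalized library sizes. Gene coordinates and transcript lengths are those of GENCODE M21 (GRCm38), whose gene starts can differ from the RefSeq starts of the promoters. Values at low counts cover counting error only.

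The listed genes and the lists were chosen with earlier results of these data known. The text names the listed genes, called genes of the 44-gene list, up to 2 largest called changes per direction in the lysosomal and interferon lists, *Acly* and the 5 genes nearest to *Cyp27a1*. *Soat2*, the untested genes at 0, *Mcoln1*, *Stat2* and the called macrophage markers were named after their values were seen. Marker lists of macrophages, neutrophils, dendritic cells, lymphocytes, erythroid and stromal cells were read as summed CPM or counts. Alternatives were DESeq2 1.42.0, limma-voom (limma 3.58.1), other scalings, filters, transcript choices and a stricter threshold, a replicate block, and each library left out. Promoters came from RefSeq (GRCm38.p6).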

Additional observations from a re-analysis of the deposited data

How the results depend on the processing

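Of 11470 genes tested, 1416 (12.3%) passed the threshold. With no filter on low counts 1747 of 15776 (11.1%) did, and with counts summed over transcripts 1312 of 11648 (11.3%). With limma-voom and sample weights 2187 genes (19.1%) passed. With every transcript kept, 2446 of 18933 transcripts (12.9%) passed. At an adjusted p of 0.01 the number of genes was 557, and with 1 library left out it was 598 to 2136 (5.15% to 18.5%). Of the 9 tested sterol genes, 5 passed with limma-voom, 2 with every transcript kept, 0 at 0.01 and 0 to 3 with 1 library left out, and DESeq2 called *Npc2* in place of *Cyp27a1*. Of the 44 other sterol handling genes, 7 passed of 31 tested, against 11 of 40 tested with no filter on low counts and 3 to 9 with 1 library left out. The lysosomal list gave 2, but 9 with limma-voom and 0 to 9 with 1 library left out. The interferon list gave 5, but 9 with no filter, 1 with counts summed over transcripts and 1 to 10 with 1 library left out. With 1 library left out the log2 fold changes of *Nceh1* (-0.00017625 to 0.0449) and *Stard3* (-0.12 to 0.0279) changed sign, both without AclyM-KO replicate 2, and the causes of these changes were not tested. The *Soat1* to *Nceh1* difference stayed between -0.25 and -0.13. Scaling by total counts alone raised the share of higher genes among calls from 54.2% to 64.4%. No clear pairing of libraries by replicate number was seen (correlations of same-numbered deviations 0.0900, 0.114 and -0.0466), and 3 libraries per group are too few to decide it. Control replicates 1 and 2 correlated best with their own number, and control replicate 3 did not. With the number as a replicate block, 1583 genes in all, 1 of the 9, 8 of the 44, 3 lysosomal and 6 interferon genes passed. *Ch25h* and 13 of the 44 genes had too few reads to be tested. Low depth and absent expression cannot be told apart for *Ch25h* and for the 4 of the 13 with 0 counts in all libraries. Others of the 13, *Soat2* among them, had reads in every library.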
